A study of Callithrix jacchus with 20 samples.

Results

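The retinoic acid genes described here are 10 genes that take up, make, bind, break down or answer retinoic acid, and they were followed through the differentiation of marmoset induced pluripotent stem cells (cjiPSCs) into primordial germ cell-like cells (cjPGCLCs). They were chosen by symbol, namely STRA6, CRABP1, CRABP2, DHRS3, ALDH1A1, ALDH1A2, CYP26A1, CYP26B1, CYP26C1 and RARB, and all 10 have a row among the 25102 genes of the deposited tables. RNA was sequenced from 10 conditions of 2 biological replicates each, 20 libraries in all, and every condition comes from 1 line, DPZ_cjiPSC2, reprogrammed without integrated transgenes from foetal fibroblasts of the common marmoset. The line stands for 1 animal, so the spread between replicates holds no spread between donors.

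The 10 conditions follow the protocol. cjiPSCs were kept either in TESR medium or in cjPSCM, a marmoset stem cell medium, both without feeder cells. From each medium, precursors of mesendoderm (pre-ME) were induced with CHIR, an inhibitor of GSK3 that switches on WNT signalling, either with Activin A (+ActA) or without it (-ActA). Pre-ME from cjPSCM cultures was then aggregated into embryoid bodies with BMP4, LIF, SCF and EGF, and at day 4 cells were sorted into a double-positive fraction, called cjPGCLCs, and a double-negative fraction, called somatic cells. The sorted cells were collected for both pre-inductions but only from cjPSCM, so day 4 and TESR cannot be compared. The labels of the sorted samples spell the medium cjEPSCM, which is taken here as cjPSCM, the name the paper uses for these cells. The media used for pre-induction and for the embryoid bodies contain the B-27 supplement. The paper lists an N2B27 base for cjPSCM and names no such base for TESR medium. The part of these media in the differences between conditions was not tested. No retinoid was measured in any condition.

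Retinoic acid is a small signalling molecule made from vitamin A. STRA6 carries retinol into the cell, retinol dehydrogenases turn it into retinaldehyde, the ALDH1A enzymes turn retinaldehyde into retinoic acid, and DHRS3 runs the first step backwards, which lowers the supply. Inside the cell CRABP1 and CRABP2 carry retinoic acid, CRABP2 towards its nuclear receptors, while the CYP26 enzymes oxidise and so clear it. The receptors RARA, RARB and RARG pair with RXR receptors on DNA. CYP26A1, RARB, DHRS3, CRABP2 and STRA6 are themselves known targets of retinoic acid, and the molecule is best known in the germ line for its part in the entry of gonadal germ cells into meiosis and, in the early embryo, for patterning along the body axis.

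All values are normalised read counts, the raw count of a gene divided by the size factor of its library. They are not divided by gene length, so levels are compared between conditions for 1 gene and never between genes. The libraries held between 4784964 and 22067099 reads on genes, and 3 reads, the limit that a count of 0 allows, correspond to 1.40 to 6.92 normalised counts. Intervals and limits of this kind cover counting error only. The replicates of cjiPSCs in cjPSCM stood apart from each other, with a standard deviation of 0.914 for the log2 difference between replicates over 14313 genes, against 0.264 to 0.570 in the other 9 conditions. Changes that passed the test in a comparison with that pair are given with and without each of its libraries. In these bulk samples, fewer cells of a type and less RNA per cell cannot be told apart.

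The markers gave mixed answers about the sorted cells. The sample labels and the study's methods differ on the surface proteins used for sorting. They name CXCR4 with EpCAM, integrin alpha 6 with EpCAM, or CXCR4 with integrin alpha 6, so the fractions are not tied here to a pair of proteins. The names cjPGCLCs and somatic cells stand for the double-positive and the double-negative fraction. The transcripts of all 3 proteins were higher in the 4 cjPGCLC libraries than in the 4 somatic libraries, CXCR4 at 1128 to 1317 against 49.5 to 76.1 normalised counts. Of 6 germ cell markers, 5 were higher in every cjPGCLC library than in every somatic library, among them SOX17 (913 to 2152 against 48.4 to 219) and NANOS3 (14.2 to 61.5 against 0 to 3.54). The sixth, KIT, was at 817 and 914 in cjPGCLCs against 1096 and 1309 in somatic cells with ActA, and overlapped without it. Of 6 endoderm markers, 2 were higher in every cjPGCLC library, FOXA2 among them (83.9 to 518 against 0 to 4.64), while the sum of the 6 overlapped between the fractions, at 3334 to 7757 against 2683 to 5343. The summed level of 5 mesenchyme markers was 8596 to 16446 in cjPGCLC libraries and 14255 to 19098 in somatic libraries, with all 5 above 3 counts in every condition, so cjPGCLCs were not free of them. In pre-ME, the sum of 6 streak and mesoderm markers was 34.7 to 102 normalised counts in cultures from cjPSCM and 182 to 912 in those from TESR. The streak gene TBXT lay at 0 to 1.67 in the former and 7.95 to 55.3 in the latter, and EOMES at 3.96 to 39.2 and 142 to 641. MESP1 went the other way, at 11.9 to 26.7 from cjPSCM and 4.25 to 9.33 from TESR, while MIXL1, TBX6 and HAND1 overlapped. The part of these cells in the results below was not tested.

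**Figure D1:**
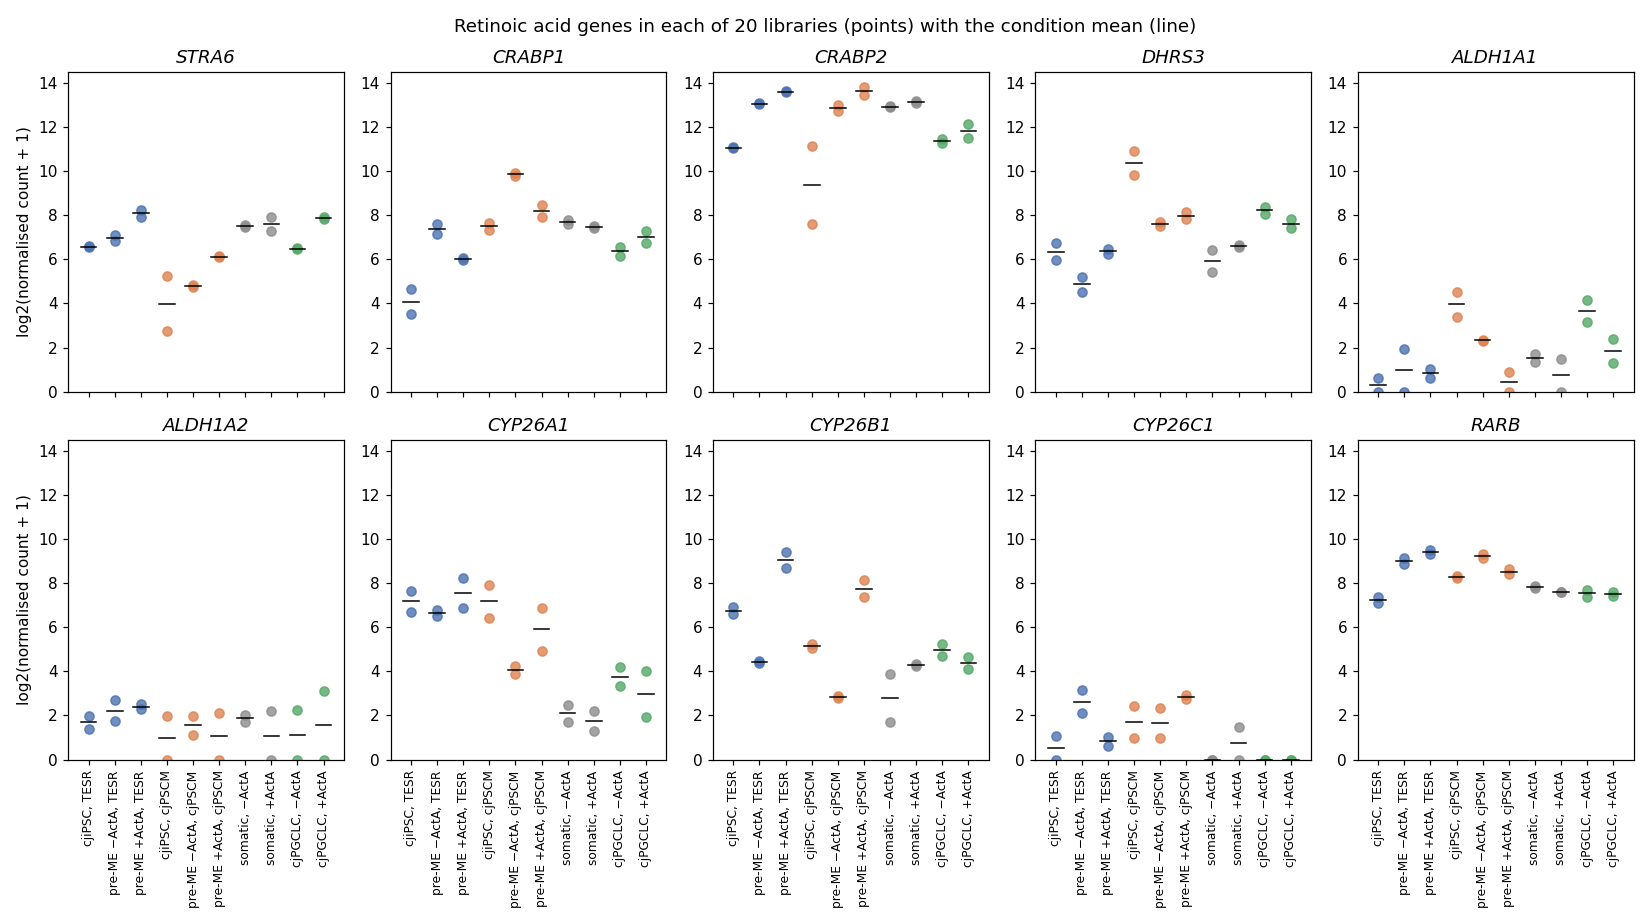
Each panel shows 1 gene, each point 1 of the 20 libraries as log2(normalised count + 1), and each line the mean of a condition; heights compare within a panel only. CYP26B1 fills the range from 2.31 to 679 normalised counts, while CYP26C1, ALDH1A1 and ALDH1A2 stay near the floor.

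The members differed in how far they moved. Between the lowest and the highest condition mean on the log2(normalised count + 1) scale, CYP26B1 spanned 6.24, CYP26A1 5.79, CRABP1 5.77 and DHRS3 5.50, while RARB spanned 2.18. Of the 10 genes, 8 passed the filter on low counts and were tested. CYP26C1 and ALDH1A2 did not pass, and ALDH1A1 passed with counts of 0 to 22 per library.

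STRA6, the membrane receptor for retinol-binding protein, was lowest in cjiPSCs in cjPSCM, at 5.65 and 37.1 normalised counts. It measured 93.1 and 95.3 in TESR. Without ActA, pre-ME from TESR held 136 and 112, and pre-ME from cjPSCM 27.1 and 25.8. The gene was therefore higher in TESR than in cjPSCM at both stages, without overlap. With ActA the values were 245 and 304 for TESR and 66.8 and 70.2 for cjPSCM. At day 4 the cjPGCLCs held 87.3 and 89.8 without ActA and 242 and 223 with it. Somatic cells held 187 and 176 without ActA and 237 and 155 with it. Only the cjPGCLCs made without ActA were thus set off from the other day 4 cells.

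CRABP1, a cytoplasmic retinoic acid carrier often linked to its breakdown, was lowest in cjiPSCs in TESR, at 24.2 and 10.4 normalised counts. In cjPSCM it stood at 160.1 and 200.1. Its top was in pre-ME from cjPSCM without ActA, at 961 and 891. With ActA the same cultures held 356 and 242. Pre-ME from TESR followed at a lower level, 141 and 191 without ActA and 61.3 and 65.3 with it. At day 4 somatic cells held 219 and 190.3 without ActA and 184 and 168 with it. The cjPGCLCs held 93.4 and 70.9 without ActA, below those somatic cells, and 106 and 156 with it.

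CRABP2, the carrier that hands retinoic acid to its receptors, showed the disagreement within cjiPSCs in cjPSCM most plainly, with 195 normalised counts in replicate 1 and 2225 in replicate 2. In TESR the values were 2089 and 2168. In all 4 pre-ME conditions it was higher: 8577 and 8415 without ActA and 12119 and 12798 with ActA from TESR, 6773 and 8054 without ActA and 14576 and 11225 with ActA from cjPSCM. Somatic cells held 7915 and 7649 without ActA and 8777 and 9332 with it. The cjPGCLCs held less than any somatic library, 2511 and 2849 without ActA and 2853 and 4524 with it.

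**Figure D2:**
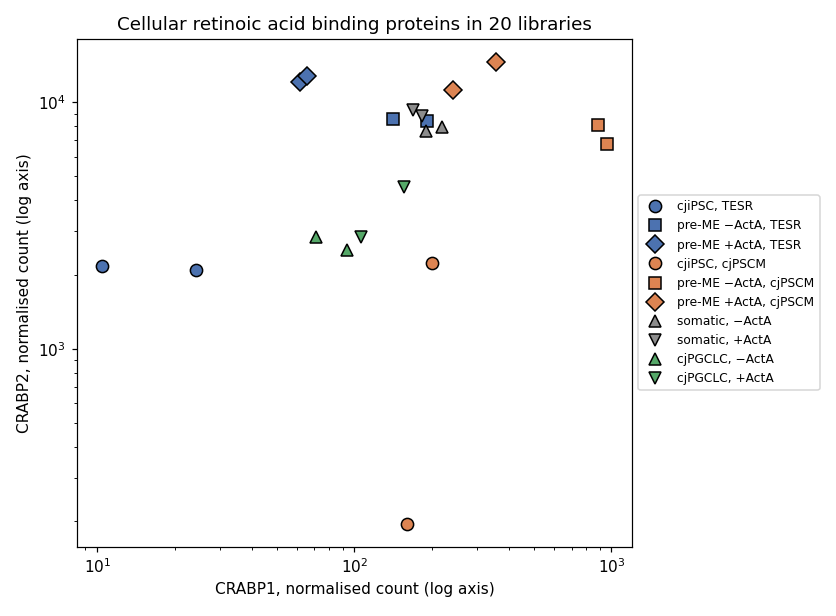
Each point is 1 library, placed by its normalised count of CRABP1 (x, log axis) and CRABP2 (y, log axis) and coloured by condition. The pair of cjiPSC libraries in cjPSCM is far apart on the y axis, at 195 and 2225, and pre-ME from cjPSCM without ActA lies farthest right.

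The balance of the carriers also shifted between conditions. The ratio of CRABP2 to CRABP1 counts within a library, which is read between libraries only because gene length cancels, was 7.05 and 9.04 in pre-ME from cjPSCM without ActA. It was 40.9 and 46.5 there with ActA. From TESR it was 60.8 and 44.0 without ActA and 198 and 196 with it. ActA thus went with a higher ratio in both media, and TESR with a higher ratio than cjPSCM, without overlap.

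DHRS3, which reduces retinaldehyde back to retinol, reached its highest level in cjiPSCs in cjPSCM, with 1912 and 898 normalised counts. In TESR it held 61.1 and 104. Pre-ME from cjPSCM held 180.4 and 207 without ActA and 281 and 225 with it, and pre-ME from TESR 35.7 and 22.0 without ActA and 88.7 and 75.4 with it. The cjPSCM cultures were higher in each pair. At day 4 the cjPGCLCs held 333 and 263 without ActA and 228 and 168 with it. Somatic cells held 41.5 and 85.1 without ActA and 101 and 93.9 with it, less than either cjPGCLC pair.

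ALDH1A1 and ALDH1A2, 2 of the enzymes that make retinoic acid, were barely detected. ALDH1A3, which is not a member, is given below with the other pathway genes. ALDH1A1 had 25 reads over both cjiPSC libraries in cjPSCM and 27 over both cjPGCLC libraries made without ActA, 22 of them in replicate 1, and at most 11 in any other condition. ALDH1A2 had between 2 and 16 reads per condition, with a lowest and a highest normalised count of 0 and 7.61. At this depth, no change of ALDH1A2 between conditions was detectable. Like DHRS3 and RARB, both genes overlap other annotated genes in a RefSeq gene table of an assembly other than the one used for counting. The annotation release and the strand setting of the counting are not given in the sources used here. Reads of these genes may therefore have been left uncounted or assigned to an overlapping gene. Reads set aside as ambiguous made up 0.268 to 0.350% per library.

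CYP26A1, the main retinoic acid-clearing enzyme of the early embryo, held 103 and 198 normalised counts in cjiPSCs in TESR and 85.7 and 240.1 in cjPSCM. From TESR it stayed there in pre-ME, at 91.1 and 108 without ActA and 296 and 116 with it. From cjPSCM it was 13.6 and 17.8 without ActA and 118 and 29.5 with it. The replicates of this gene were far apart in several conditions, and 8 of the 9 neighbours in the order of its condition means overlapped. At day 4 it was low throughout, at 9.11 and 17.3 in cjPGCLCs without ActA, 15.2 and 2.84 with ActA, 2.31 and 4.64 in somatic cells without ActA and 3.54 and 1.49 with ActA.

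CYP26B1, the second enzyme of the family, gave the clearest pattern of the set. It held 95.3 and 119 normalised counts in cjiPSCs in TESR and 32.0 and 37.1 in cjPSCM. With ActA, pre-ME held 679 and 415 from TESR and 279.5 and 166 from cjPSCM, its highest values in the series. Without ActA, pre-ME held 20.8 and 19.7 from TESR and 6.48 and 5.94 from cjPSCM. So pre-induction moved the gene up or down from the cjiPSC level according to ActA, in both media and with no overlap. At day 4 it held 25.1 and 36.2 in cjPGCLCs without ActA, 16.1 and 24.2 with ActA, 2.31 and 13.9 in somatic cells without ActA and 19.5 and 17.9 with ActA.

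CYP26C1, the third enzyme, was close to the floor. Its highest total was 23 reads, in pre-ME from TESR without ActA, followed by 12 in pre-ME from cjPSCM with ActA. It had 0 reads in all 4 cjPGCLC libraries and in both somatic libraries without ActA, which allows up to 3 reads in each library. Against cjPGCLCs made with ActA, with the floor of 3 counts taken over the group, the 12 reads of the matching pre-ME gave 3.95-fold. This takes the 12 reads as exact, so it is not a strict lower bound.

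RARB, a receptor whose own promoter answers retinoic acid, varied least among the tested members. It held 137 and 165 normalised counts in cjiPSCs in TESR and 297 and 320.2 in cjPSCM. Pre-ME was higher, with 464 and 568 without ActA and 638 and 733 with it from TESR, and 634 and 564 without ActA and 396 and 341 with it from cjPSCM. ActA thus went with higher values in TESR and lower values in cjPSCM. The 8 day 4 libraries lay between 164 and 231, and the sorted fractions overlapped in the cultures with ActA.

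**Figure D3:**
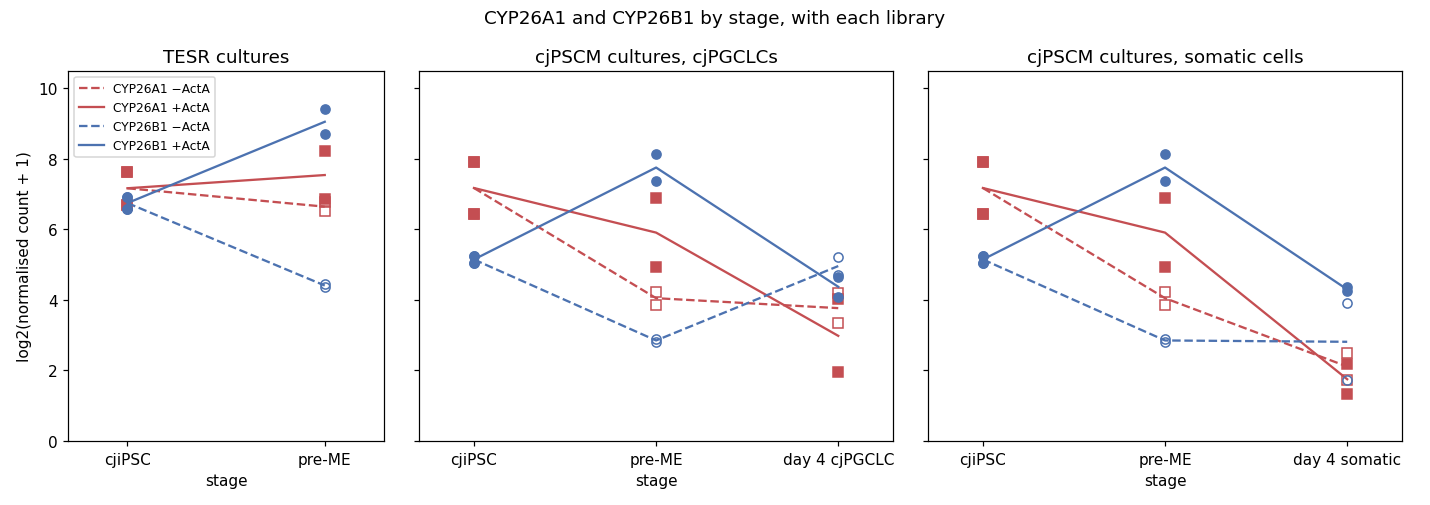
log2(normalised count + 1) of CYP26A1 (squares, red) and CYP26B1 (circles, blue) at each stage, with lines through condition means, dashed and open for -ActA and solid and filled for +ActA; the cjiPSC libraries, shared by both lines, are drawn filled. In pre-ME the open and filled CYP26B1 points lie far apart in both media, and at day 4 they come together.

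The comparisons below use edgeR's quasi-likelihood F-test over all 20 libraries, with p-values adjusted by Benjamini-Hochberg over 15797 genes. A gene is said to rise or fall at an adjusted p under 0.05, and to be called when its log2 fold change also passes 2. Differences given below are log2 fold changes with their standard error. Several comparisons share libraries, so their values are set side by side and are not independent of each other. Over the 17 comparisons of condition pairs the 8 tested members gave 37 calls, and CYP26B1 was called in 9 of them, CRABP1 in 7 and RARB in 1.

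The first question was which members differ between the maintenance media. In cjPSCM, 4 of 8 tested members were called against TESR, while 9.18% of all genes tested were called. DHRS3 rose by 4.14 (SE 0.368, edgeR adjusted p = 2.88e-07) and CRABP1 by 3.16 (SE 0.315, edgeR adjusted p = 9.74e-07). ALDH1A1 was also called, on 25 reads against 1, a ratio of 35.8 with a 95% counting interval of 5.86 to 1470. STRA6 fell by 2.33 (SE 0.43, edgeR adjusted p = 4.63e-04). RARB rose and CYP26B1 fell by smaller amounts, 1.02 and 1.65. The median over the 8 members was 0.56 here, and over the 17 comparisons it lay between -1.27 and 1.62, against -0.03 to 0.04 over all genes.

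In that comparison, single libraries set some of the sizes. Without replicate 1 of cjiPSCs in cjPSCM the change of DHRS3 was 3.49 and that of STRA6 -1.38, and without replicate 2 they were 4.61 and -4.04. CRABP1 stood at 3.28 and 2.99, RARB at 1.07 and 0.99 and CYP26B1 at -1.54 and -1.72 without replicate 1 and without replicate 2, and ALDH1A1 was called both times. With only the 4 libraries of the comparison fitted, DHRS3 and CRABP1 were called, STRA6 and RARB had edgeR adjusted p-values of 0.0607 and 0.0706, and ALDH1A1 did not pass the filter on low counts. CRABP2 had a log2 fold change of -0.86 (edgeR adjusted p = 0.257), which became 0.03 without replicate 1 and -3.45 (edgeR adjusted p = 2.46e-08) without replicate 2. The endoderm marker sum was 2269 and 2859 in cjPSCM against 139 and 195 in TESR, and its part in these differences was not tested.

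The second question was what pre-induction did. From TESR without ActA, 3 of 8 members were called against 7.86% of all genes. CRABP1 rose by 3.09 (SE 0.308, edgeR adjusted p = 1.87e-06), CRABP2 rose by 2.01 (SE 0.578, edgeR adjusted p = 0.0122) and CYP26B1 fell by 2.37 (SE 0.342, edgeR adjusted p = 6.95e-05). Below the fold threshold, RARB rose by 1.80 and DHRS3 fell by 1.45. Without cjiPSC replicate 1 or 2 in TESR, CRABP2 kept its size, 2.00 and 2.02, with edgeR adjusted p-values of 0.0621 and 0.0672, and without pre-ME replicate 1 it was 1.99. DHRS3 gave edgeR adjusted p-values of 0.08 without cjiPSC replicate 2 in TESR and 0.0997 without pre-ME replicate 2.

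From TESR with ActA, 3 of 8 members were called, all upwards, against 6.96% of all genes. CYP26B1 rose by 2.38 (SE 0.305, edgeR adjusted p = 2.54e-05), CRABP2 by 2.56 (SE 0.589, edgeR adjusted p = 0.00321) and RARB by 2.21 (SE 0.162, edgeR adjusted p = 7.30e-08). CRABP1 and STRA6 also rose, by 1.69 and 1.55. Without pre-ME replicate 1 CYP26B1 stood at 1.98, and without cjiPSC replicate 1 CRABP1 stood at 2.62.

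From cjPSCM without ActA, 5 of 8 members were called, against 5.27% of all genes. CYP26A1 fell by 3.33 (SE 0.674, edgeR adjusted p = 0.00124), CYP26B1 by 2.40 (SE 0.48, edgeR adjusted p = 0.00114) and DHRS3 by 2.84 (SE 0.335, edgeR adjusted p = 1.21e-05). The carriers rose, CRABP1 by 2.41 (SE 0.251, edgeR adjusted p = 4.44e-06) and CRABP2 by 2.68 (SE 0.597, edgeR adjusted p = 0.00248). RARB rose by 1.00. The clearing enzymes and DHRS3 thus fell while the carriers and the receptor rose. Without cjiPSC replicate 1 CRABP2 rose by 1.79 and ALDH1A1 was called at -2.37, and without cjiPSC replicate 2 CRABP2 rose by 5.27 and STRA6 by 2.23. Without replicate 1 and without replicate 2, CYP26A1 stood at -3.91 and -2.46, DHRS3 at -2.17 and -3.29, CYP26B1 at -2.49 and -2.31, CRABP1 at 2.26 and 2.55 and RARB at 0.96 and 1.04. With only the 4 libraries of the comparison fitted, 3 of the 5 calls remained, and CYP26B1 and CRABP2 had edgeR adjusted p-values of 0.0533 and 0.145.

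From cjPSCM with ActA, 4 of 8 members were called, against 3.06% of all genes. CYP26B1 rose by 2.73 (SE 0.347, edgeR adjusted p = 5.52e-05) and CRABP2 by 3.46 (SE 0.616, edgeR adjusted p = 0.00101), while DHRS3 fell by 2.46 (SE 0.331, edgeR adjusted p = 9.24e-05). ALDH1A1 went from 25 reads to 1, a ratio of 27.5 with a 95% counting interval of 4.50 to 1129, and its edgeR adjusted p was 0.0712 without pre-ME replicate 1 and 0.0555 without pre-ME replicate 2. STRA6 and CRABP1 rose by 1.86 and 0.77. These values moved with 1 library. Without cjiPSC replicate 1 STRA6 gave 0.91 (edgeR adjusted p = 0.0951), CRABP1 0.63 (edgeR adjusted p = 0.225), CRABP2 2.57, DHRS3 -1.79 and CYP26B1 2.63. Without cjiPSC replicate 2 STRA6 gave 3.57, CRABP1 0.92, CRABP2 6.05, DHRS3 -2.91 and CYP26B1 2.82, and ALDH1A1 was called without either. Without pre-ME replicate 1 CRABP1 gave 0.44 (edgeR adjusted p = 0.42) and STRA6 1.89 (edgeR adjusted p = 0.0512). With only the 4 libraries of the comparison fitted, CYP26B1 was the 1 call left, DHRS3 and CRABP2 had edgeR adjusted p-values of 0.0537 and 0.202, and ALDH1A1 did not pass the filter on low counts, while the calls over all genes went from 483 to 107.

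**Figure D4:**
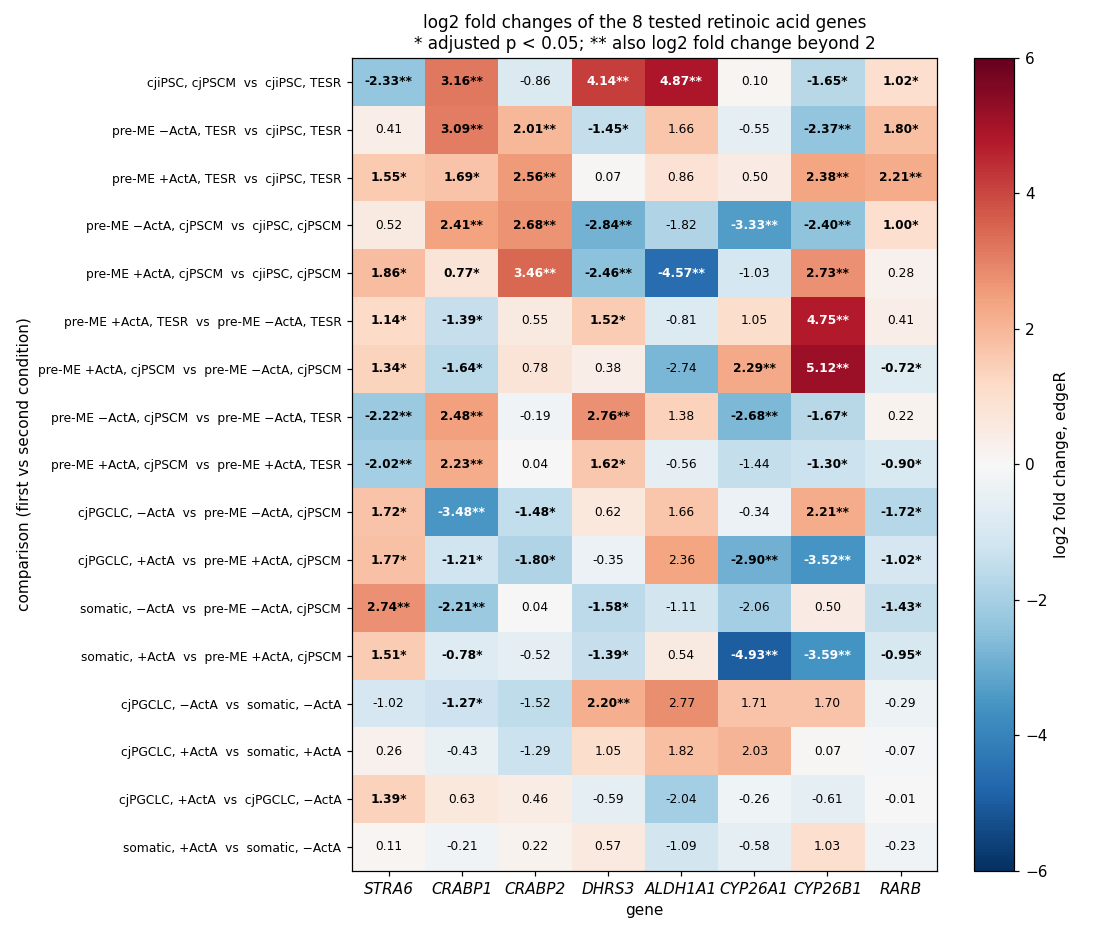
log2 fold change of each tested member (columns) in each comparison (rows, first condition against second), red for higher and blue for lower in the first; 1 star marks an adjusted p under 0.05 and 2 stars a log2 fold change beyond 2 as well. CYP26B1 is at 4.75 and 5.12 with ActA, the deepest red in the plot besides ALDH1A1 at 4.87, whose values rest on few reads.

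The third question was what ActA adds at the pre-ME stage. CYP26B1 rose more than any other tested member in both media, and it is the call both media share. In TESR cultures 1 of 8 members was called, against 2.00% of all genes, and this was CYP26B1, with a log2 fold change of 4.75 (SE 0.345, edgeR adjusted p = 3.42e-07). In cjPSCM cultures 2 of 8 were called, against 2.11% of all genes. CYP26B1 rose there by 5.12 (SE 0.415, edgeR adjusted p = 8.08e-07). The difference between the media was -0.37 (SE 0.547, edgeR adjusted p = 0.764), so no difference in the ActA effect on CYP26B1 was detected.

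CYP26A1 was the other call in cjPSCM, with a log2 fold change of 2.29 (SE 0.683, edgeR adjusted p = 0.0261), and it passed in 1 of the 4 fits that left out 1 of its own libraries. Without replicate 1 of pre-ME with ActA it was 0.91 (edgeR adjusted p = 0.552). Without replicate 1 or 2 of pre-ME without ActA it was 2.07 (edgeR adjusted p = 0.144) and 2.48 (edgeR adjusted p = 0.108). In TESR the change was 1.05 (edgeR adjusted p = 0.312). Within each library, the ratio of CYP26B1 to CYP26A1 counts was 0.154 to 0.925 in the 4 cjiPSC libraries and 0.182 to 0.478 in the 4 pre-ME libraries without ActA. It was 2.29 to 5.62 in the 4 with ActA.

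CRABP1 fell with ActA in both media, by 1.39 in TESR (SE 0.254, edgeR adjusted p = 0.0017) and by 1.64 in cjPSCM (SE 0.24, edgeR adjusted p = 2.45e-04). STRA6 rose in both, by 1.14 (edgeR adjusted p = 0.0289) and 1.34 (edgeR adjusted p = 0.0244), with adjusted p-values above 0.05 in each fit that left out 1 of its own libraries, where it stood at 0.98 to 1.29 in TESR and 1.31 to 1.38 in cjPSCM. DHRS3 rose in TESR by 1.52 (edgeR adjusted p = 0.0162), with 1.20 (edgeR adjusted p = 0.232) without replicate 2 of pre-ME without ActA and 1.39 (edgeR adjusted p = 0.116) without replicate 1 of pre-ME with ActA. CRABP2 stood at 0.55 in TESR and 0.78 in cjPSCM with edgeR adjusted p-values of 0.691 and 0.337, in a fit that takes 1 spread per gene over all conditions. Without cjiPSC replicate 1 in cjPSCM, or without replicate 2, these became 0.0367 and 0.00312.

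RARB differed between the media in its response to ActA. It fell by 0.72 in cjPSCM (SE 0.153, edgeR adjusted p = 0.00475) and stood at 0.41 in TESR (edgeR adjusted p = 0.111), and the difference of 1.12 (SE 0.213) had an edgeR adjusted p of 0.0261. It was the 1 member with such a difference, against 0.399% of all genes. With any 1 of the 8 libraries of the contrast left out, the difference was 0.985 to 1.28 and its adjusted p 0.0622 to 0.157. In cjPSCM alone the ActA effect was -0.61 (edgeR adjusted p = 0.0511) without replicate 2 of pre-ME with ActA. EOMES, a streak gene, measured 267 and 641 normalised counts in pre-ME with ActA from TESR and 22 to 39 from cjPSCM, and its part was not tested.

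The fourth question was how pre-ME differs by the medium of origin. Without ActA, 4 of 8 members were called, against 3.91% of all genes. In cultures from cjPSCM, DHRS3 was higher by 2.76 (SE 0.373, edgeR adjusted p = 6.61e-05) and CRABP1 by 2.48 (SE 0.244, edgeR adjusted p = 2.61e-06). CYP26A1 was lower, at -2.68 (SE 0.662, edgeR adjusted p = 0.0102), and STRA6 at -2.22 (SE 0.369, edgeR adjusted p = 4.65e-04). CYP26B1 stood at -1.67 (edgeR adjusted p = 0.0233). CYP26A1 stayed between -2.87 and -2.46 when 1 of its own libraries was left out, with an adjusted p above 0.05 without either replicate from cjPSCM (0.0944 and 0.069) and without replicate 2 from TESR (0.0574). CYP26B1 stood at -1.74 to -1.63 in those fits, with adjusted p-values of 0.081 to 0.13.

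With ActA, 2 of 8 members were called, against 4.12% of all genes. CRABP1 was higher in cultures from cjPSCM by 2.23 (SE 0.258, edgeR adjusted p = 1.23e-05) and STRA6 lower, at -2.02 (SE 0.343, edgeR adjusted p = 4.80e-04). Without replicate 1 from cjPSCM these were 1.91 and -1.98, and without replicate 2 from TESR STRA6 was -1.85. DHRS3 rose by 1.62 (edgeR adjusted p = 0.00259), RARB stood at -0.90 (edgeR adjusted p = 4.54e-04) and CYP26B1 at -1.30 (edgeR adjusted p = 0.00374). CYP26B1 was -0.98 (edgeR adjusted p = 0.0653) without replicate 2 from cjPSCM and -0.90 (edgeR adjusted p = 0.0949) without replicate 1 from TESR. CYP26A1, at -1.44 (edgeR adjusted p = 0.0689), was -2.82 (edgeR adjusted p = 0.0243) without replicate 1 from cjPSCM. CRABP1 and DHRS3 were thus higher, and STRA6 and CYP26B1 lower, in cjPSCM with and without ActA and already at the cjiPSC stage.

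The effect of pre-induction without ActA itself differed between the media for 1 of 8 members, against 6.54% of all genes. This was RARB, whose rise was larger from TESR by 0.81 (SE 0.222, edgeR adjusted p = 0.0389). With 1 library of the contrast left out the difference was 0.650 to 0.942 and passed in 4 of 8 fits, with 0.85 and 0.77 without replicate 1 and without replicate 2 of cjiPSCs in cjPSCM. CYP26A1 differed by 2.78 with an edgeR adjusted p of 0.0677. CYP26B1 differed by 0.03 (SE 0.398, edgeR adjusted p = 0.985).

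The fifth question was what changed from pre-ME to day 4. Without ActA, 2 of 8 members were called in cjPGCLCs, against 7.88% of all genes. CRABP1 fell by 3.48 (SE 0.268, edgeR adjusted p = 5.84e-08) and CYP26B1 rose by 2.21 (SE 0.486, edgeR adjusted p = 0.00179), or by 1.97 without cjPGCLC replicate 2. RARB fell by 1.72, STRA6 rose by 1.72 and CRABP2 fell by 1.48 (edgeR adjusted p = 0.0477). With 1 of its own libraries left out CRABP2 was -1.61 to -1.34 with adjusted p-values of 0.0844 to 0.191, and without cjiPSC replicate 1 in cjPSCM ALDH1A1 and DHRS3 also passed, at 1.68 (edgeR adjusted p = 0.0426) and 0.63 (edgeR adjusted p = 0.0438).

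In somatic cells made without ActA, 2 of 8 members were called, against 7.94% of all genes. CRABP1 fell by 2.21 (SE 0.254, edgeR adjusted p = 4.17e-06) and STRA6 rose by 2.74 (SE 0.384, edgeR adjusted p = 3.07e-05). RARB fell by 1.43 and DHRS3 by 1.58 (edgeR adjusted p = 0.00398). DHRS3 was -1.21 (edgeR adjusted p = 0.0555) without somatic replicate 1 and -2.25 without somatic replicate 2. CYP26A1 had 41 reads in pre-ME and 4 in these somatic cells, a ratio of 4.09 with a 95% counting interval of 1.48 to 15.7, and an edgeR adjusted p of 0.211. With only the 4 libraries of the comparison fitted it was called as lower in somatic cells (edgeR adjusted p = 0.0191).

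With ActA, 2 of 8 members were called in cjPGCLCs, against 8.36% of all genes, and both fell. CYP26B1 fell by 3.52 (SE 0.372, edgeR adjusted p = 1.61e-06) and CYP26A1 by 2.90 (SE 0.762, edgeR adjusted p = 0.005). Without pre-ME replicate 1 CYP26A1 was -1.52 (edgeR adjusted p = 0.207). CRABP1 fell by 1.21, RARB by 1.02 and CRABP2 by 1.80, while STRA6 rose by 1.77. CRABP2 gave -1.60 (edgeR adjusted p = 0.0799) without pre-ME replicate 1, -1.51 (edgeR adjusted p = 0.127) without cjPGCLC replicate 1 and -2.17 without cjPGCLC replicate 2.

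In somatic cells made with ActA the same 2 of 8 were called, CYP26B1 and CYP26A1, against 8.30% of all genes. CYP26B1 fell by 3.59 (SE 0.396, edgeR adjusted p = 2.38e-06). CYP26A1 had 162 reads in pre-ME and 3 in these somatic cells, a ratio of 34.9 with a 95% counting interval of 11.7 to 171. DHRS3 fell by 1.39, RARB by 0.95 and CRABP1 by 0.78, and STRA6 rose by 1.51. CRABP1 was -0.46 (edgeR adjusted p = 0.252) without pre-ME replicate 1, -0.84 (edgeR adjusted p = 0.0599) without somatic replicate 1 and -0.72 (edgeR adjusted p = 0.109) without somatic replicate 2. CRABP2 stood at -0.52 with an edgeR adjusted p of 0.462, which became 0.0162 without either cjiPSC library in cjPSCM.

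In all 4 day 4 comparisons CRABP1 and RARB fell and STRA6 rose, on pre-ME controls that the sorted fractions share. CYP26B1 ended between 2.31 and 36.2 normalised counts whether it started high or low. Over the same step several marker lists moved between the 4 pre-ME libraries from cjPSCM and the 8 day 4 libraries. The summed mesenchyme markers went from 612 to 1520 normalised counts up to 8596 to 19098, the amnion and surface ectoderm markers from 686 to 966 up to 4861 to 7580, and the endoderm markers from 376 to 498 up to 2683 to 7757. The streak and mesoderm markers went from 34.7 to 102 up to 2161 to 4864, nearly all of it HAND1. The part of these shifts was not tested.

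The sixth question was whether sorted cjPGCLCs differ from somatic cells. Without ActA, 1 of 8 members was called, against 2.84% of all genes. DHRS3 was higher in cjPGCLCs by 2.20 (SE 0.391, edgeR adjusted p = 0.00139), or by 1.83 (edgeR adjusted p = 0.0322) without somatic replicate 1. CRABP1 was lower, at -1.27 (SE 0.276, edgeR adjusted p = 0.00652), with -1.17 (edgeR adjusted p = 0.061) without somatic replicate 1 and -1.11 (edgeR adjusted p = 0.0669) without cjPGCLC replicate 2. CYP26B1 stood at 1.70 (edgeR adjusted p = 0.0673), and at 3.63 (edgeR adjusted p = 0.0475) without somatic replicate 2, which held 13.9 normalised counts against 2.31 in replicate 1. ALDH1A1 had 27 reads in cjPGCLCs and 2 in somatic cells, a ratio of 7.47 with a 95% counting interval of 1.88 to 64.8, and an edgeR adjusted p of 0.111.

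With ActA, 0 of 8 members were called or passed the adjusted p by edgeR, against 1.58% of all genes called. At an unadjusted p under 0.05 edgeR gave 2, DHRS3 and CRABP2, and DESeq2 gave 0 at an adjusted p under 0.05. DHRS3 stood at 1.05 (SE 0.371, edgeR adjusted p = 0.138). Whether sorting separated the members more by either protocol was tested as a difference of differences, which passed for 0 of 8 members, against 0.0633% of all genes, with 4 at an unadjusted p under 0.05 (CYP26B1, DHRS3, CRABP1 and STRA6) and 0 by DESeq2. For DHRS3 it was -1.16 (SE 0.544, edgeR adjusted p = 0.796), so the fractions are not shown to differ more without ActA than with it.

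CRABP2 and STRA6 in the sorted fractions turned on how the spread was estimated. CRABP2 was lower in cjPGCLCs by both protocols, at -1.52 without ActA (SE 0.571, edgeR adjusted p = 0.115) and -1.29 with it (SE 0.566, edgeR adjusted p = 0.267), and the fractions did not overlap in either. Without cjiPSC replicate 1 in cjPSCM, a library that is in neither comparison, the adjusted p-values were 1.30e-05 and 1.38e-04, and without replicate 2 they were 1.31e-05 and 1.38e-04. STRA6 without ActA stood at -1.02 with an edgeR adjusted p of 0.0849, which became 0.00233 without cjiPSC replicate 1. DHRS3 with ActA passed likewise, with an edgeR adjusted p of 0.0277.

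The last question was whether ActA during pre-induction left differences among the members at day 4. In cjPGCLCs 0 of 8 were called, against 0.380% of all genes, with 3 at an unadjusted p under 0.05 (ALDH1A1, CRABP1 and STRA6). STRA6 was higher with ActA by 1.39 (SE 0.34, edgeR adjusted p = 0.0379), the 1 member past the adjusted p, as by DESeq2. With 1 of its own libraries left out it was 1.33 to 1.44 with adjusted p-values of 0.106 to 0.301. ALDH1A1 stood at -2.04 (SE 0.791, edgeR adjusted p = 0.232). In somatic cells 0 of 8 were called, against 0.00633% of all genes, and 0 passed an unadjusted p under 0.05 by edgeR or an adjusted p by DESeq2. CYP26B1 stood at 1.03 (SE 0.629) and RARB at -0.23 (SE 0.174) there.

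Of 30 further genes of the retinoid pathway that were listed, 27 have a row and 22 were tested, and 9 were called in at least 1 comparison. Between the media, 3 of 22 were called, against 9.18% of all genes. CYP1B1, which can oxidise retinol and retinaldehyde besides its better known substrates, held 183 and 217 normalised counts in cjiPSCs in TESR and 11316 and 7172 in cjPSCM, a log2 fold change of 5.53 (edgeR adjusted p = 6.26e-08). It was also higher in pre-ME from cjPSCM, by 4.90 without ActA and 5.09 with it, and fell in somatic cells by 2.18 and 2.15. FABP5, which can carry retinoic acid to another class of receptor, rose by 2.38 in cjPSCM, and RBP4, the carrier of retinol in blood, fell by 2.11.

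At the pre-ME stage, 2 of 22 were called from TESR without ActA and 2 with ActA, and 1 of 22 from cjPSCM in each case, against 7.86%, 6.96%, 5.27% and 3.06% of all genes. ALDH1A3, the third retinoic acid-making enzyme, fell without ActA by 3.89 from TESR, with 45.7 and 40.2 normalised counts before and 3.84 and 1.87 after, and by 2.60 from cjPSCM. RXRG, a partner of the retinoic acid receptors, fell from TESR by 2.04 without ActA and by 3.88 with it. ActA itself called 2 of 22 in each medium, against 2.00% of all genes in TESR and 2.11% in cjPSCM. ALDH1A3 rose by 2.46 in TESR, RXRG fell by 2.87 in cjPSCM, and BCO2, a carotenoid-cleaving enzyme, went from 3 to 34 reads in TESR and from 4 to 17 in cjPSCM, ratios of 12.1 (95% counting interval 3.80 to 61.5) and 6.02 (1.96 to 24.6). By medium of origin 1 of 22 was called without ActA and 2 of 22 with it, against 3.91% and 4.12% of all genes, and FABP5 was higher in cjPSCM with ActA, by 2.02.

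At day 4, 4 of 22 were called in cjPGCLCs by each protocol, 6 in somatic cells without ActA and 5 with it, against 7.88% and 8.36% of all genes in cjPGCLCs and 7.94% and 8.30% in somatic cells. FABP5 fell in all 4 comparisons, by 2.81 and 3.23 in cjPGCLCs and 2.61 and 3.07 in somatic cells. NCOA1, a receptor coactivator, rose in all 4, by 2.01 and 2.31 in cjPGCLCs and 2.72 and 2.55 in somatic cells. RXRG rose by 2.57 in cjPGCLCs with ActA and fell by 2.42 in somatic cells without it. BCO2 rose in somatic cells with ActA by 3.17. Without ActA it went from 4 reads in pre-ME to 74 in somatic cells, a ratio of 46.3 (95% counting interval 17.4 to 175). In cjPGCLCs without ActA it had 28 reads, a ratio of 9.71 (3.40 to 38.1) to the same pre-ME. Between the fractions 2 of 22 were called without ActA and 0 with it (by edgeR 7 at an unadjusted p under 0.05 and 2 at an adjusted p, by DESeq2 3), against 2.84% and 1.58% of all genes. BCO1, the enzyme that splits beta-carotene, had 24 reads in cjPGCLCs and 1 in somatic cells, a ratio of 13.3 (95% counting interval 2.17 to 546). BCO2, the other call, was lower in cjPGCLCs without ActA, at 16.7 and 9.46 normalised counts against 64.6 and 71.2. ActA during pre-induction called 0 of 22 in cjPGCLCs and 0 of 22 in somatic cells by edgeR and by DESeq2, against 0.380% and 0.00633% of all genes by edgeR, with 2 and 1 at an unadjusted p under 0.05 by edgeR. The median over the 22 genes lay between -0.27 and 0.31 in the 17 comparisons.

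**Figure D5:**
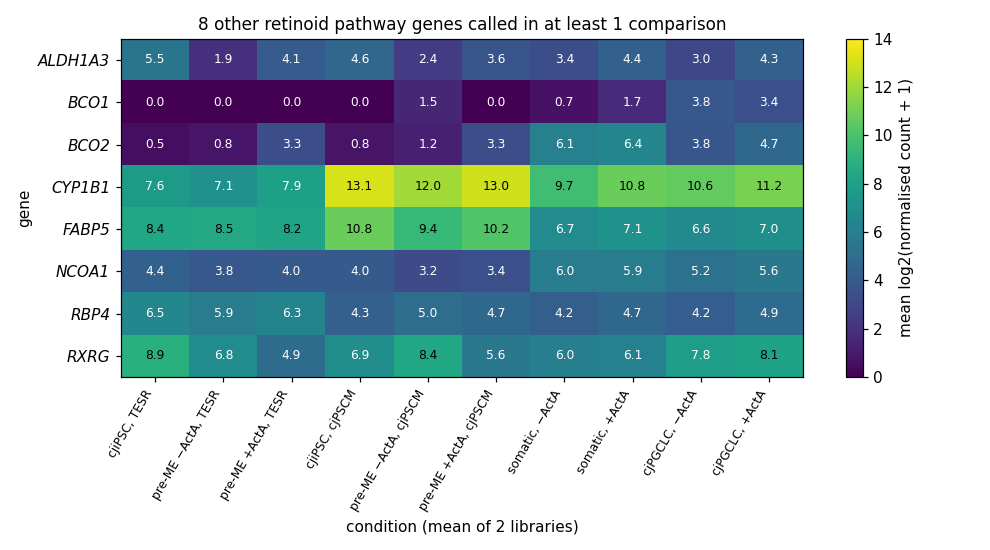
Mean log2(normalised count + 1) of 8 of the 9 other retinoid pathway genes called in at least 1 comparison (rows) in the 10 conditions (columns), to be read along a row only. Brighter cells are higher: CYP1B1 is brighter in every condition derived from cjPSCM than in those from TESR, and FABP5 darkens at day 4.

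Retinoic acid is known to act through HOX and other developmental genes, and 15 such receptor targets were listed, of which 12 were tested. These genes answer other signals too, WNT among them. Pre-induction called 6 of 12 from TESR without ActA, 4 with it, and 4 and 2 from cjPSCM, against 7.86%, 6.96%, 5.27% and 3.06% of all genes. CDX1, a posterior homeobox gene that WNT also drives, rose in all 4, by 5.67 and 5.64 from TESR and 5.90 and 7.58 from cjPSCM. Between the cjiPSC media 1 of 12 was called, CDX1 at -2.59, against 9.18% of all genes.

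ActA called 0 of 12 targets in TESR, with 3 at an unadjusted p under 0.05 by edgeR and 0 at an adjusted p by edgeR or DESeq2, and 1 of 12 in cjPSCM, against 2.00% and 2.11% of all genes. By medium of origin 3 of 12 were called without ActA and 1 of 12 with it, against 3.91% and 4.12%, and NR2F1, an orphan receptor, was lower in cjPSCM both times, at -2.51 and -2.43. At day 4, 3 of 12 were called in cjPGCLCs by each protocol, 3 in somatic cells without ActA and 6 with it, against 7.88% and 8.36% of all genes in cjPGCLCs and 7.94% and 8.30% in somatic cells. CDX1 fell in all 4 comparisons, while NR2F1 rose in somatic cells by 3.21 and 3.72. Between the fractions 3 of 12 were called by each protocol, against 2.84% of all genes without ActA and 1.58% with it. Pre-induction with ActA called 0 of 12 in cjPGCLCs (by edgeR 6 at an unadjusted p under 0.05 and 1 at an adjusted p, 0 by DESeq2) and 0 of 12 in somatic cells (1 at an unadjusted p, 0 by DESeq2), against 0.380% and 0.00633% of all genes. The median over the 12 genes lay between -0.66 and 0.86.

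The genes whose condition means ran closest to those of the leading members were found by Pearson correlation over the 10 conditions among 12496 genes. The points share libraries and culture steps, so these values are a description without a test. MB21D2 (r = 0.952), SLC2A5 (r = 0.945) and TBC1D10A (r = 0.922) were nearest to CYP26B1. SUV39H1 (r = 0.960), ALG12 (r = 0.959) and ATG4B (r = 0.952) were nearest to CYP26A1, GLS2 (r = 0.950), ASGR1 (r = 0.923) and CCDC78 (r = 0.884) to CRABP1, and CIB1 (r = 0.964), ADGRG6 (r = 0.959) and DPYSL3 (r = 0.956) to DHRS3.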

How the data were processed

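Poly(A) RNA was sequenced in 20 bulk libraries from 10 conditions of 2 biological replicates each. The authors checked reads with FastQC 0.11.8, mapped them with STAR 2.7.0a to the calJac4 genome and assigned them to genes with HTSeq 0.11, and deposited raw counts per gene. A further table, also deposited by the authors, holds the same counts divided by a DESeq2 size factor per library, a normalised signal. The annotation release and strand setting are not given in the sources used here. Summary rows (10.6 to 23.2% of reads outside genes) were left out. The groups come from the sample labels.

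The count model was edgeR 4.0.16 under R 4.3.3 (TMM, filterByExpr by condition, quasi-likelihood F-test, 1 coefficient per condition, all 20 libraries, 10 residual degrees of freedom), with Benjamini-Hochberg adjustment over 15797 genes. Calls needed a log2 fold change past 2 besides an adjusted p below 0.05. DESeq2 1.42.0, DESeq2 size factors, no filter, a mean of at least 1 CPM, the libraries of a comparison only, a replicate block and leaving out each library were alternatives. Where each library of the lower condition held 3 or fewer reads, exact counting intervals for ratios (95%, scipy 1.17.1) replaced fitted folds. On simulated counts for cjPSCM against TESR (15168 genes, 200 changed by a log2 fold of 3), edgeR recovered 200 and called 0 others, and DESeq2 199 and 0. The simulation gave all genes 1 dispersion and changed only genes of at least 1 CPM. It therefore does not cover genes of few reads or the spread between the cjPSCM cjiPSC replicates.

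The members and the pathway, target and marker lists were chosen with earlier results of these data known. All 10 members are named, other list genes where called (at most the 3 largest changes each way), and the 3 nearest genes to the 4 leading members among genes averaging 10 or more normalised counts. The labels call the replicates biological, and the paper calls them biologically independent. Neither says how the cultures were separated, so p-values may measure partly technical spread. Some genes of the lists are counted but not reported here by name.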

Additional observations from a re-analysis of the deposited data

Results flagged for a closer look

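RARB was flagged because its response differed between the media in a test of the difference itself. Its ActA effect at the pre-ME stage was larger in TESR than in cjPSCM by 1.12 on the log2 scale (SE 0.213, edgeR adjusted p = 0.0261), in a test that 0.399% of all genes passed. In TESR both replicates with ActA lay above both without, and in cjPSCM below. These are the values that gave the difference and add no separate evidence. The rise of RARB on pre-induction without ActA was larger from TESR by 0.81 (SE 0.222, edgeR adjusted p = 0.0389), in a test that 6.54% of all genes passed. With 1 library of the contrast left out, the first had an adjusted p of 0.0622 to 0.157 and the second of 0.0160 to 0.184. No group had enough samples for a test of single outlying libraries.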

How the results depend on the processing

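The alternatives were run on 73 pairs of a gene and a comparison past the adjusted p and gave 879 values, of which 0 reversed and 78, in 28 pairs, kept their direction with an adjusted p above 0.05. Leaving out 1 library gave 62 of those 78, by construction with fewer samples. With only the libraries of a comparison fitted, CYP26A1 joined the 2 members called in somatic cells without ActA against pre-ME. In such fits the members called were 2 between the media (4 in the fit over all), 3 from cjPSCM without ActA (5), 1 with ActA (4), and the members with a difference between media were 3 for ActA (1) and 0 for pre-induction (1). Over all genes these differences passed for 2513 of 15491 genes for ActA (63 of 15797) and 125 of 15425 for pre-induction (1033 of 15797). With no filter on low counts, the sorting difference between protocols passed for 1 member (0), and the differences between media for 2 and 3, while over all 25102 genes they passed for 269 (10), 735 (63) and 1776 (1033). DESeq2 gave 2 members for pre-induction and 1298 genes. The cause was not tested. With 1 library of the comparison left out, 1 to 2 members were called for ActA in cjPSCM, for the medium at pre-ME with ActA and for cjPGCLCs against pre-ME without ActA, 1 to 3 for cjPGCLCs with ActA, and 0 to 2 for the sorted fractions without ActA, while 0 differed between media for ActA in each of 8 fits and 0 to 4 for pre-induction. The labels do not pair the replicate numbers; a replicate block left 72 of the 73 pairs past the adjusted p and CRABP1 from cjPSCM with ActA at 0.762 (edgeR adjusted p = 0.0528). Same-numbered deviations correlated at -0.216 to 0.319 over 45 pairs of conditions, above 0.1 in 9 and below -0.1 in 4. The highest values, 0.319, 0.296 and 0.284, were between cultures with and without ActA (pre-ME from TESR, cjPGCLCs and pre-ME from cjPSCM). Crossed blocks were added after seeing the data for 3 compared pairs at -0.216 to -0.149. With 2 replicates and counts of 0 to 22, ALDH1A1, ALDH1A2 and CYP26C1 were limited by depth.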

Other observations

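The genes in this paragraph are on the retinoid pathway list but were not called in any comparison; they were picked with their values in view. The retinoic acid receptors RARA and RARG moved in opposite directions with ActA at the pre-ME stage. RARA rose, with 309 and 284 normalised counts without ActA and 474 and 480.3 with it from TESR (log2 fold change 0.69, edgeR adjusted p = 0.0156), and 338 and 235 without and 643 and 566 with it from cjPSCM (1.05, edgeR adjusted p = 7.01e-04). RARG fell by 0.65 (edgeR adjusted p = 0.00692) and 0.53 (edgeR adjusted p = 0.0175). RDH10, the retinol dehydrogenase that opens retinoic acid synthesis, fell with ActA by 0.65 in TESR (edgeR adjusted p = 0.0284) and by 1.04 in cjPSCM (edgeR adjusted p = 0.00106). From pre-ME to somatic cells RARG rose by 0.77 without ActA and 1.27 with it. STRA8, which retinoic acid switches on as germ cells enter meiosis, and LRAT, which stores retinol as ester, had 1 read each over all 20 libraries.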
